A study of Mus musculus with 40 samples.

Results

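Chitinase-like genes and the receptors that sense chitin were followed in primary mammary tumors of mice by RNA-sequencing. The set held 9 genes chosen by symbol, Chil1, Chil3, Chid1, Ovgp1, Tlr2, Clec7a, Mrc1, Nod2 and Lgals3, and all 9 were among the 14318 genes of the table. The tumors grew in female BALB/c mice that were mated at an age of 8 w and inoculated while lactating, after their pups had been weaned. The paper describes milk production stopping after weaning and an accompanying involution process. Cells of the 4T1-luc or the 66cl4-luc line were placed in the milk ducts of the third mammary gland pair. Both are BALB/c mammary tumor cell lines that carry luciferase, so each model stands for 1 line in a host with an intact immune system. From 3 w post-inoculation (p.i.), mice were left untreated or received intraperitoneal anti-PD-1 (200 µg weekly), chitin (1 mg every 3 d) or chitin + anti-PD-1. Tumors were taken at 5 w p.i., and every group held 5 of them except the untreated 4T1 group, which held 4. A further untreated 4T1 tumor, number 3, was not analysed here. Each tumor was labelled as a sample of its own, without a mouse number. Because a pair of glands was inoculated, tumors of a group may come from the same mouse. The p-values treat the samples as independent and measure the spread between them.

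Chitin is a polymer of N-acetylglucosamine that mammals do not make. Chitinases cut it, while chitinase-like proteins keep the fold and often the sugar-binding groove of the family but lack the acid residue needed for cutting. In tissue they are secreted mostly by macrophages, neutrophils and epithelial cells, and Chil1 and Chil3 are widely used as signs of a wound-healing type of inflammation. Chitin particles and other microbial sugars are taken up or sensed by pattern recognition receptors of myeloid cells, among them toll-like receptor 2 (Tlr2), dectin-1 (Clec7a), the mannose receptor (Mrc1) and the intracellular sensor Nod2, while galectin-3 (Lgals3) binds galactose-containing sugars.

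The loss of the cutting residue is visible in the coding sequences. The stretches below run 5′ to 3′ and come from the mouse transcripts of the GENCODE M21 annotation (GRCm38). They cover the catalytic motif, and the capitals mark the codon at the place of the catalytic glutamate. Other codons of the motif differ between the genes as well. The true chitinases Chia1 and Chit1, which are not among the genes of the table, are shown for comparison.
Chia1: gatggactggacctggactggGAA
Chit1: gatggccttgaccttgactggGAG
Chil1: gatgggctggatctcgcctggCTC
Chil3: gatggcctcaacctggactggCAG
Ovgp1: gatggtcttgaccttttcttcTTG
Chia1 and Chit1 end in a glutamate codon (GAA or GAG), whereas Chil1, Chil3 and Ovgp1 end in CTC, CAG and TTG. For Chid1 no stretch could be aligned to this motif without gaps. The same 24 bases were found in Chil3 and its close copy Chil4, which had no row in the table. No stretch of the Chil3 transcript at the read length of the paper, 150 bases, occurred in Chil4, while 18.5% of its 50-base stretches did. Whether any reads counted for Chil3 came from Chil4 was not tested.

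In the GRCm38 genome, Chil1 lies at chr1:134182176-134190181, plus strand, Chil3 at chr3:106147554-106167564, minus strand, Ovgp1 at chr3:105973711-105987423, plus strand and Chid1 at chr7:141493136-141539857, minus strand. Among the receptors, Tlr2 lies at chr3:83836272-83841767, minus strand, Clec7a at chr6:129461591-129472779, minus strand, Mrc1 at chr2:14229392-14332057, plus strand and Nod2 at chr8:88647315-88688474, plus strand. Lgals3 lies at chr14:47367751-47386160, plus strand. All are annotated as protein-coding except Clec7a, which this annotation lists as a polymorphic pseudogene. Reads were counted over exons with strand information.

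Between 5105898 and 14800352 reads per tumor were recovered from the table. The median depth was 10250227 reads in the 66cl4 chitin group and 8985408 in the 66cl4 chitin + anti-PD-1 group, against 6064018 in untreated and 6166518 in anti-PD-1-treated 66cl4 tumors. In bulk tumor RNA, fewer cells of a type and less RNA per cell cannot be told apart. Summed levels of 6 epithelial markers ran from 13849 to 50133 normalized counts in 4T1 and from 3369 to 6019.6 in 66cl4. Summed levels of 10 macrophage markers ran from 7738 to 49129 in 4T1 and from 43294 to 83775 in 66cl4. For 10 measured neutrophil markers the ranges were 1878 to 11002 and 1223 to 3087, and the defining neutrophil genes Ly6g and Elane had no row in the table.

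A normalized count is the number of reads of a gene divided by the size factor of its tumor. Divided by exon length, these counts put the 9 genes in an order, which by median was Lgals3, Mrc1, Clec7a, Tlr2, Chid1, Chil1, Nod2, Chil3 and Ovgp1 in 4T1 and Mrc1, Lgals3, Tlr2, Clec7a, Chid1, Nod2, Chil1, Chil3 and Ovgp1 in 66cl4. Lgals3 and Mrc1 were the most abundant, with medians of 738 and 234 normalized counts per kb in 4T1 tumors and 833 and 1318 in 66cl4 tumors. Clec7a (medians 214 and 112 per kb in 4T1 and 66cl4) and Tlr2 (123 and 131 per kb) came next. Chid1 had medians of 46.5 and 51.4 per kb. Its annotated exon length was 10.855 kb, the longest of the 9 genes, against 3.014 kb for Tlr2 and 2.638 kb for Clec7a. The place of Chid1 below these receptors depends on that length, and the length of a single transcript was not tried. The lowest levels were those of Nod2 (19.0 and 7.01 per kb), Chil1 (22.1 and 4.70), Chil3 (18.3 and 0.801) and Ovgp1 (2.95 and 0.610). In 4T1 each neighbouring pair in this order overlapped between tumors. In 66cl4 the order had 2 gaps, since Chid1 (41.0 to 58.2 per kb) lay above Nod2 (3.66 to 9.15), and Lgals3 (642 to 1335) lay above Tlr2 (78.1 to 178), in every tumor.

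**Figure D1:**
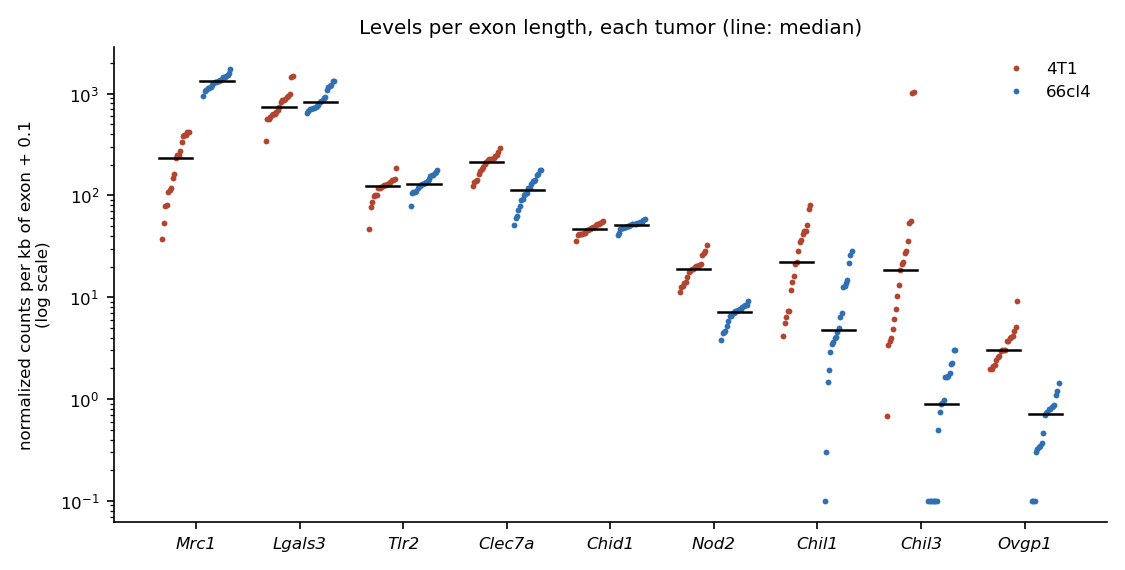
Normalized counts per kb of exon, plus 0.1, on a log axis, for each of the 9 genes in 19 4T1 tumors (red) and 20 66cl4 tumors (blue), with the median as a line. Mrc1 in 66cl4 and Lgals3 in both models lie at the top, and Ovgp1 lies at the bottom in both models by median.

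Of the 4 chitinase-like genes, Chil1, Chil3 and Ovgp1 were higher in 4T1 tumors than in 66cl4 tumors, and Chid1 was slightly lower. The comparison took the mean over the 4 treatment groups of each model. It addresses how the models differ in RNA of these genes, and protein levels were not measured here. Differences are given on the deposited log2 scale, on which low counts are compressed.

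Chil1, a secreted glycoprotein also known as BRP-39, ran from 11.4 to 226 (median 61.9) normalized counts in 4T1 tumors and from 0 to 79.6 (median 13.2) in 66cl4 tumors. The 4T1 values were 15.4, 32.8, 61.9 and 39.3 in untreated tumors, 207, 20.1, 98.5, 144 and 126 after anti-PD-1, 11.4, 20.4, 79.3, 44.9 and 126 after chitin and 103, 226, 17.7, 59.1 and 117 after chitin + anti-PD-1. In 66cl4 tumors they were 10.0, 12.6, 7.91, 5.15 and 34.7 without treatment, 3.85, 79.6, 17.8, 13.8 and 10.7 after anti-PD-1, 9.45, 72.5, 19.5, 38.0 and 0 after chitin and 60.5, 41.6, 11, 35.8 and 0.561 after chitin + anti-PD-1. No untreated 4T1 tumor passed the 4T1 median, the other 4T1 groups held tumors on both sides of it, and the ranges of the models overlapped. The mean difference was 0.63 (SE 0.147, adjusted p = 0.00024) and rested on 12 to 169 reads per 4T1 tumor. With limma-voom on the recovered reads, which does not compress low counts, it was 2.17 on the log2 scale (adjusted p = 0.000953).

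Chil3, also known as Ym1, is a secreted lectin of mouse myeloid cells that has no human orthologue. In 4T1 tumors its normalized counts were 16.6, 7.82, 6.38 and 87.8 without treatment, 34.7, 5.35, 57.6, 91.3 and 46.5 after anti-PD-1 and 0.948, 21.3, 12.2, 5.91 and 29.9 after chitin. After chitin + anti-PD-1 they were 9.81, 36.0, 1700.1, 1665 and 44.3. Tumors 3 and 4 of this last group, with 1345 and 1776 reads, stood apart from the other 37 tumors of both models, none of which passed 91.3 normalized counts. In 66cl4 tumors Chil3 never passed 4.83 normalized counts, and 7 of 20 tumors had 0 reads. The mean difference between models was 1.06 (SE 0.248, adjusted p = 0.000225), or 4.25 with limma-voom on the recovered reads (adjusted p = 0.00941). Without both tumors it was, on the deposited scale, 0.68 (adjusted p = 1.2e-07). In tumors 3 and 4 the neutrophil marker mean was 8.28 and 9.02 on the log2 scale, against 9.34, 8.31 and 8.91 in tumors 1, 2 and 5. The macrophage marker mean was 10.76 and 10.74, against 9.35, 10.48 and 10.97 in tumors 1, 2 and 5. The part of cell content in these Chil3 values was not tested.

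Ovgp1, the oviductal glycoprotein, was close to the detection limit and ran from 6.64 to 32.4 (median 10.5) normalized counts in 4T1 and from 0 to 4.77 (median 2.17) in 66cl4. Every 4T1 tumor lay above every 66cl4 tumor, and the mean difference was 0.38 (SE 0.0411, adjusted p = 2.34e-10), or 2.60 with limma-voom on the recovered reads (adjusted p = 8.62e-11). No 66cl4 tumor had more than 10 reads of Ovgp1 or Chil3, so both genes entered the authors' table only through the 4T1 tumors and had to differ between models. Chid1, which binds the scavenger receptor Stab1 and is found in lysosomes, was nearly even and ran from 389 to 613 (median 505) normalized counts in 4T1 and from 445 to 631 (median 558) in 66cl4. Its difference of -0.10 (SE 0.0396, adjusted p = 0.0265) was small beside the overlap of the models.

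Among the receptors, Mrc1 was much lower in 4T1 than in 66cl4 tumors, Clec7a and Nod2 were higher, and Tlr2 and Lgals3 did not pass the threshold. Mrc1 encodes CD206, an endocytic receptor for mannose and N-acetylglucosamine on macrophages and lymphatic endothelium. In 4T1 tumors its normalized counts were 506, 749, 2123 and 1591 without treatment, 2435, 511, 2479, 2517 and 2702 after anti-PD-1, 338, 1029, 948, 723 and 681 after chitin and 239, 1749, 1493, 1591 and 2697 after chitin + anti-PD-1. In 66cl4 tumors they ran from 5979 to 11209 (median 8400.1). No 4T1 tumor reached the lowest 66cl4 tumor, and on the log2 scale the spread was wider within 4T1 (SD 0.94) than within 66cl4 (SD 0.22). Mean counts were 5.86-fold higher in 66cl4, and the difference on the log2 scale was -2.70 (SE 0.194, adjusted p = 9.55e-15).

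Clec7a, the receptor for fungal beta-glucans, ran from 328 to 771 (median 565) normalized counts in 4T1 and from 136 to 473 (median 296) in 66cl4, a difference of 0.66 (SE 0.0903, adjusted p = 4.66e-08) with overlapping ranges. Nod2, the cytosolic sensor of bacterial muramyl dipeptide, ran from 56.3 to 165 (median 95.1) in 4T1 and from 18.3 to 45.9 (median 35.2) in 66cl4. The ranges of Nod2 did not overlap, and its difference was 0.64 (SE 0.055, adjusted p = 1.06e-12), or 1.51 with limma-voom. Tlr2, the receptor for bacterial lipoproteins, ran from 139 to 558 (median 371) in 4T1 and from 235 to 535 (median 393) in 66cl4, with a difference that missed the threshold (-0.15, 95% interval -0.29 to -0.0041, adjusted p = 0.0557) but passed it in 12 of 39 fits that left out 1 tumor. Lgals3 ran from 642 to 2749.7 (median 1371) in 4T1 and from 1192 to 2481 (median 1548) in 66cl4 (-0.19, 95% interval -0.44 to 0.063, adjusted p = 0.162).

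In total 7 of 9 genes differed between the models, 5 higher and 2 lower in 4T1, while 78.8% of all genes tested did so, 40.8% higher and 38% lower. Chil3 and Ovgp1, which had entered through 4T1 alone, are among the 5 higher genes. The median difference was 0.38 over the 9 genes, which is the value of Ovgp1 itself, and 0.015 over all genes. The 9-gene median is thus no measure of a shift of the set. Of the 9 genes, 3 had no overlap between all 4T1 and all 66cl4 tumors, against 17.9% of all genes. Ovgp1 and Nod2 lay higher in every 4T1 tumor (9.87% of all genes did) and Mrc1 in every 66cl4 tumor (7.98%). The share of genes past the threshold was close to that of the whole table, and 1 of the 3 genes without overlap, Ovgp1, had entered through 4T1 alone. Neutrophil markers (9 of 10 higher in 4T1) and macrophage markers (9 of 10 lower in 4T1) moved with the model as well, and their part in these differences was not tested.

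**Figure D2:**
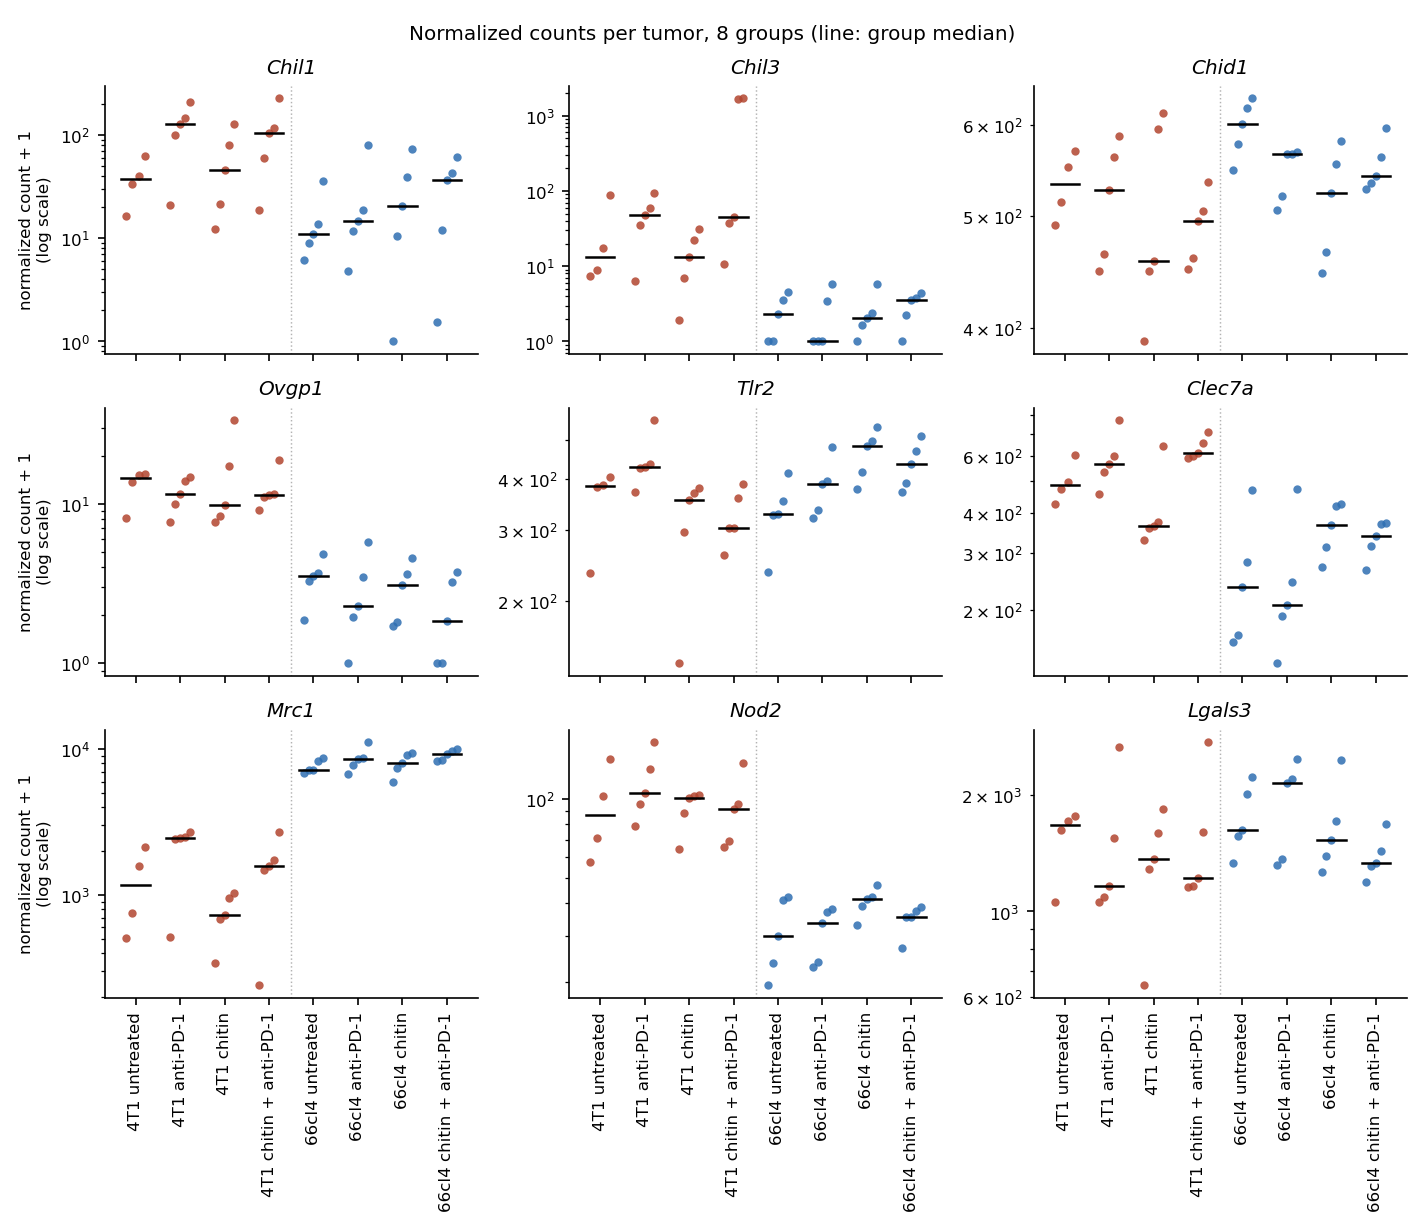
Normalized counts plus 1 on a log axis for each gene in every tumor of the 8 groups, 4T1 in red and 66cl4 in blue, with the group median as a line. The Mrc1, Nod2 and Ovgp1 points of the models do not overlap, and 2 of the 4T1 chitin + anti-PD-1 tumors lie far above the rest for Chil3.

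The model difference was also taken within each treatment. In untreated tumors 4 genes passed the threshold (Clec7a, Mrc1, Nod2 and Ovgp1; 55.8% of all genes did), in anti-PD-1-treated tumors 5 (these and Chil1; 58.8%), in chitin-treated tumors 4 (Tlr2, Mrc1, Nod2 and Ovgp1; 59.1%) and in chitin + anti-PD-1-treated tumors 7, all but Chid1 and Lgals3 (56.9%). Mrc1 and Nod2 thus passed in each of the 4 treatments. Ovgp1 did so too, although after quantile normalization its call was lost in anti-PD-1-treated tumors (adjusted p = 0.0544). Ovgp1 and Chil3 stand in these counts although they entered the table through 4T1 alone and had to differ between models. Tlr2 differed between the models by 0.06 (95% interval -0.24 to 0.36, adjusted p = 0.755) in untreated tumors and by 0.16 (95% interval -0.12 to 0.45, adjusted p = 0.323) after anti-PD-1. It was lower in 4T1 after chitin (-0.48, 95% interval -0.77 to -0.20, adjusted p = 0.00367) and after chitin + anti-PD-1 (-0.34, 95% interval -0.62 to -0.05, adjusted p = 0.0409). Clec7a was higher in 4T1 in 3 of the treatments, while after chitin alone its difference did not pass (0.14, 95% interval -0.22 to 0.50, adjusted p = 0.505). After chitin + anti-PD-1 the calls of Tlr2 and Chil1 were lost in 6 and 5 of 39 fits that left out 1 tumor, at adjusted p-values up to 0.109 (without 4T1 tumor 4) and 0.115 (without 4T1 tumor 2) of that group. Without 4T1 tumors 3 and 4 of that group the Tlr2 difference was -0.24 (adjusted p = 0.217), and the Chil3 difference was 0.69 (adjusted p = 0.00627) in place of 2.24.

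The chitin-containing groups were compared with the others to ask whether the genes of chitinase-like proteins and of chitin receptors respond to the particles. By limma, none of the 9 genes passed the threshold in 4T1 or in 66cl4, and neither did any of the 14318 genes (0%). At an unadjusted p under 0.05 the count was 1 of 9 in 4T1 (Tlr2; 7.28% of all genes) and 2 of 9 in 66cl4 (Tlr2 and Clec7a; 15.6% of all genes), and limma-voom also called 0 of 9 in each model. The median difference of the 9 genes was -0.073 in 4T1 and 0.078 in 66cl4, and over all genes it was 0.0040 and 0.0026.

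Tlr2 had the smallest p of the 9 genes in 66cl4. Its normalized counts were 235, 328, 412, 325 and 352 in untreated 66cl4 tumors, 319.6, 388, 396, 335 and 479 after anti-PD-1, 535, 495, 376, 482 and 416 after chitin and 469, 510.0, 371, 391 and 435 after chitin + anti-PD-1. The chitin-containing groups lay in the upper range, with overlap (0.26, 95% interval 0.11 to 0.41, adjusted p = 0.131). In 4T1 the values were 385, 233, 404 and 381 without treatment, 371, 435, 558, 427 and 425 after anti-PD-1, 139, 368, 354, 295 and 380.2 after chitin and 302, 358, 302, 259 and 388 after chitin + anti-PD-1. Here the chitin-containing groups lay lower on average (-0.26, 95% interval -0.51 to -0.0087, adjusted p = 0.665). The test of the difference between the models gave -0.52 (95% interval -0.81 to -0.23, adjusted p = 0.0845), at an unadjusted p of 0.000857. None of the 9 genes passed that test and 2 of 9 (Tlr2 and Clec7a) had an unadjusted p under 0.05, while 0.0978% of all genes passed and 13.2% had such an unadjusted p. Leaving out untreated, anti-PD-1-treated or chitin-treated 4T1 tumor 2, or chitin + anti-PD-1-treated 4T1 tumor 5, each put Tlr2 past the threshold, at adjusted p-values down to 0.0341. Within 66cl4, leaving out untreated tumor 3 did the same for the chitin-containing groups (adjusted p = 0.0436).

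Clec7a followed Tlr2 in 66cl4. Its normalized counts were 159, 235, 281, 469 and 167 in untreated tumors, 136, 190.4, 207, 473 and 243 after anti-PD-1, 417, 271, 366, 423 and 312 after chitin and 369, 372, 265, 314 and 338 after chitin + anti-PD-1. Tumor 4 of the untreated and of the anti-PD-1 group was the highest of its group, and the ranges of the chitin-containing and other groups overlapped (0.37, 95% interval 0.076 to 0.66, adjusted p = 0.22). In 4T1 the values were 497, 474, 424 and 602 without treatment, 457, 565, 598, 771 and 533 after anti-PD-1, 375, 643, 328, 363 and 359 after chitin and 587, 595, 655, 612 and 708 after chitin + anti-PD-1, with no shift of the chitin-containing groups past the threshold (-0.066, 95% interval -0.27 to 0.14, adjusted p = 0.937).

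Macrophage marker levels are given beside both receptors. In 66cl4 their sums ran from 43294 to 71437 normalized counts in untreated tumors, 54927 to 77606 after anti-PD-1, 68674 to 81610.5 after chitin and 65218 to 83775 after chitin + anti-PD-1. There 8 of 10 markers were higher in the chitin-containing groups, 6 of them with an unadjusted p under 0.05 (15.6% of all genes) and none past the threshold. The median difference over all genes was 0.0026 in 66cl4 and 0.0040 in 4T1. In 4T1 all 10 markers were lower, 8 with an unadjusted p under 0.05 and none past the threshold. All 7 dendritic cell and all 6 T cell markers were lower too. The tumors given anti-PD-1 alone had the highest means of these lists. On the log2 scale the 4T1 T cell mean was 8.05 there, against 7.30 without treatment, 7.30 with chitin alone and 7.11 with the combination. Dendritic cell means were 7.95, 7.46, 7.37 and 7.28 in the same order. With chitin alone against no treatment, 10 of 10 macrophage, 5 of 7 dendritic cell and 3 of 6 T cell markers were lower. The part of macrophage content and of the greater depth of chitin-treated 66cl4 tumors in the Tlr2 and Clec7a values was not tested. Thinned to equal depth, the 66cl4 difference of Tlr2 was 0.34 by limma-voom (adjusted p = 0.13).

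The chitinase-like genes showed no shift with chitin past the threshold. In 4T1, the chitin-containing groups differed from the others by 0.012 (95% interval -0.45 to 0.48, adjusted p = 0.996) for Chil1 and by 0.57 (95% interval -0.45 to 1.59, adjusted p = 0.867) for Chil3, intervals that leave room for changes in both directions. Without chitin + anti-PD-1 tumors 3 and 4 the Chil3 difference turned to -0.20. In 66cl4 the differences were 0.11 (95% interval -0.26 to 0.48, adjusted p = 0.811) for Chil1 and -0.082 (95% interval -0.17 to 0.0022, adjusted p = 0.336) for Chid1. Chitin alone against untreated 66cl4 tumors gave a Chid1 difference that overlapped between groups and was short of the threshold (-0.18, 95% interval -0.30 to -0.06, adjusted p = 0.236).

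For Mrc1, the endocytic receptor, chitin-containing and other groups differed by -0.53 (95% interval -1.32 to 0.26, adjusted p = 0.821) in 4T1 and by 0.078 (95% interval -0.10 to 0.26, adjusted p = 0.717) in 66cl4. For Nod2 the differences were -0.081 (95% interval -0.29 to 0.13, adjusted p = 0.911) in 4T1 and 0.10 (95% interval -0.0026 to 0.20, adjusted p = 0.335) in 66cl4. For Lgals3 they were -0.077 (95% interval -0.51 to 0.35, adjusted p = 0.978) in 4T1 and -0.23 (95% interval -0.49 to 0.029, adjusted p = 0.384) in 66cl4. None of these passed. Each treatment was also compared with the untreated tumors of its model, which the 3 comparisons of a model share. In these 6 comparisons 0 of 9 genes passed in each, as did 0 of 14318 genes, and limma-voom called 0 of 9 as well. None of the 9 had treated tumors that all lay above or all below the untreated ones, against 0.74%, 1.76% and 0.936% of all genes in 4T1 after chitin, anti-PD-1 and chitin + anti-PD-1 and 1.68%, 0.65% and 2.12% in 66cl4. At an unadjusted p under 0.05 the counts were 0, 1 and 1 of 9 in 4T1 after chitin, anti-PD-1 and chitin + anti-PD-1 (2.77%, 8.89% and 2.56% of all genes). In 66cl4 they were 2, 0 and 2 (11.4%, 5.36% and 10.6% of all genes). After anti-PD-1 in 4T1 the gene was Chil1 (0.69, 95% interval 0.012 to 1.36, adjusted p = 0.553), whose values of 207 and 144 normalized counts in tumors 1 and 4 stood against 20.1 in tumor 2. After chitin + anti-PD-1 in 4T1 it was Chil3 (1.65, 95% interval 0.16 to 3.14, adjusted p = 1), and without tumors 3 and 4 that difference was 0.11.

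**Figure D3:**
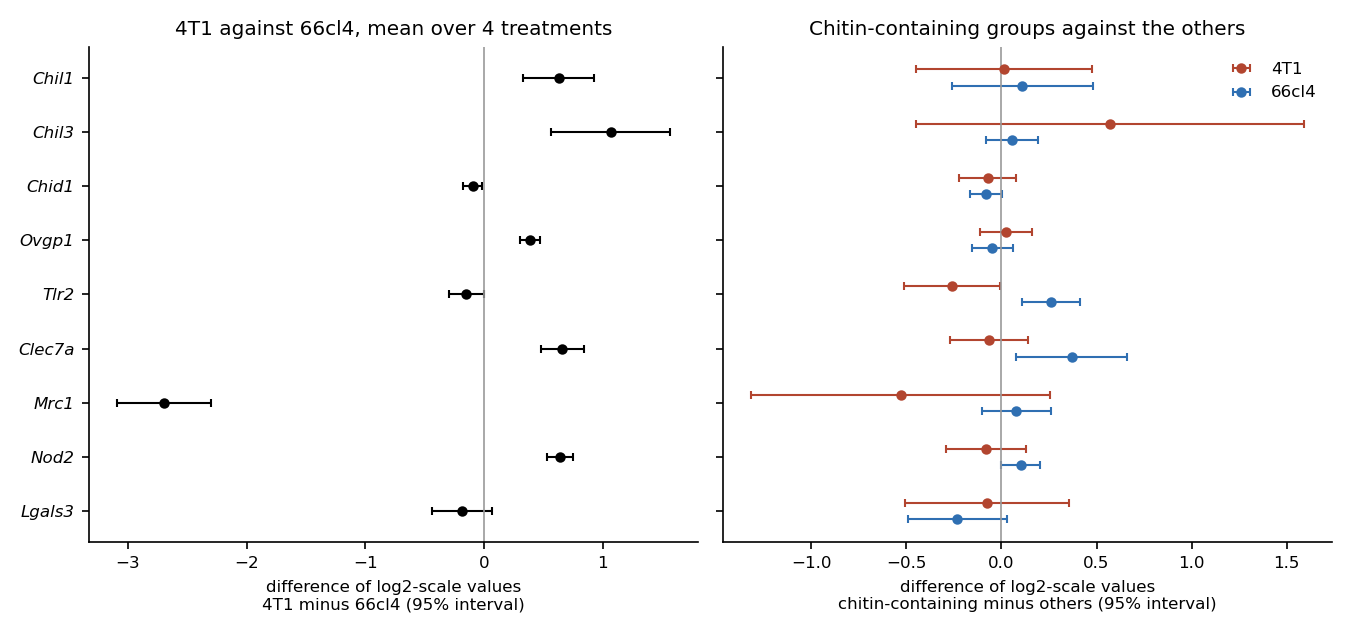
Differences on the log2 scale with 95% intervals for the 9 genes, between 4T1 and 66cl4 over 4 treatments (left) and between chitin-containing and other groups in each model (right, 4T1 red and 66cl4 blue). Mrc1 stands apart on the left at -2.70, and on the right the Tlr2 intervals of the models lie on opposite sides of 0.

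Each gene was then related to marker levels across the tumors of a model, 19 in 4T1 and 20 in 66cl4. The mean log2-scale value of the neutrophil and of the macrophage markers was used, which gave 36 relations. By Pearson's r, 6 of the 36 passed an adjusted p of 0.05, all of them with macrophage markers. The tumors of a relation share their libraries and cell composition.

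Mrc1 rose with macrophage markers in 4T1, with r = 0.90 (adjusted permutation p = 0.00036), rho = 0.88 (adjusted permutation p = 0.00036) and r = 0.83 without the 2 tumors farthest from the median, where 0.00036 is the smallest adjusted p that 100000 resamples could give. Tlr2 gave r = 0.75 (adjusted permutation p = 0.00324), rho = 0.63 (adjusted permutation p = 0.0374) and r = 0.51 without the 2 tumors farthest from the median in 66cl4. In 4T1 Tlr2 gave r = 0.61 (adjusted permutation p = 0.0399), rho = 0.58 (adjusted permutation p = 0.0441) and r = 0.51 without the 2 tumors farthest from the median. After centring on the treatment group means, r for Tlr2 was 0.59 in 66cl4 (adjusted permutation p = 0.0554) and 0.44 in 4T1 (adjusted permutation p = 0.209), both short of the threshold.

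Clec7a in 66cl4 gave r = 0.67 (adjusted permutation p = 0.0106), rho = 0.71 (adjusted permutation p = 0.0139) and r = 0.62 without the 2 tumors farthest from the median. Nod2 in 66cl4 gave r = 0.61 (adjusted permutation p = 0.0298), rho = 0.49 (adjusted permutation p = 0.109) and r = 0.56 without the 2 tumors farthest from the median, and centred on the treatment groups its r was 0.57 (adjusted permutation p = 0.0582). Lgals3 ran against macrophage markers in 4T1, with r = -0.63 (adjusted permutation p = 0.0298), rho = -0.63 (adjusted permutation p = 0.0374) and r = -0.57 without the 2 tumors farthest from the median. Leaving out untreated 66cl4 tumor 1, which had the lowest macrophage marker mean of its model, left 1 of the 36 relations past the threshold, that of Mrc1 in 4T1.

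For Chil1 and neutrophil markers, the values were r = 0.50 (adjusted permutation p = 0.108), rho = 0.61 (adjusted permutation p = 0.0374) and r = 0.65 without the 2 tumors farthest from the median in 4T1 and r = 0.52 (adjusted permutation p = 0.0962), rho = 0.59 (adjusted permutation p = 0.0374) and r = 0.62 without the 2 tumors farthest from the median in 66cl4. The rank correlation passed the threshold in both models and Pearson's r in neither. For Chil3 and neutrophil markers in 4T1 they were r = 0.35 (adjusted permutation p = 0.336), rho = 0.52 (adjusted permutation p = 0.0978) and r = 0.29 without the 2 tumors farthest from the median.

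When all 10 marker lists were related to the 9 genes after these values had been seen, giving 180 relations, the highest r of Chil1 was with other lists. With 3 milk protein genes (Csn1s1, Csn2 and Csn3, the measured markers of lactating mammary epithelium) it was r = 0.87 (adjusted permutation p = 0.00045), rho = 0.85 (adjusted permutation p = 0.0009) and r = 0.85 without the 2 tumors farthest from the median in 4T1, and r = 0.64 (adjusted permutation p = 0.0303), rho = 0.75 (adjusted permutation p = 0.006) and r = 0.76 without the 2 tumors farthest from the median in 66cl4. Centred on the treatment groups, r was 0.89 and 0.67. With the 6 epithelial markers, which include Epcam and keratins, Chil1 gave r = 0.88 (adjusted permutation p = 0.00045), rho = 0.90 (adjusted permutation p = 0.0006) and r = 0.83 without the 2 tumors farthest from the median in 66cl4, but r = -0.035 in 4T1 (adjusted permutation p = 0.948). With adipocyte markers it gave r = 0.72 (adjusted permutation p = 0.0153), rho = 0.72 (adjusted permutation p = 0.0112) and r = 0.62 without the 2 tumors farthest from the median in 4T1 and r = 0.66 (adjusted permutation p = 0.0183), rho = 0.52 (adjusted permutation p = 0.102) and r = 0.45 without the 2 tumors farthest from the median in 66cl4. Summed levels of the milk protein genes ran from 4.01 to 2825 normalized counts in 4T1 and from 0.711 to 544 in 66cl4. Whether gland tissue in the samples takes part in the Chil1 values was not tested.

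**Figure D4:**
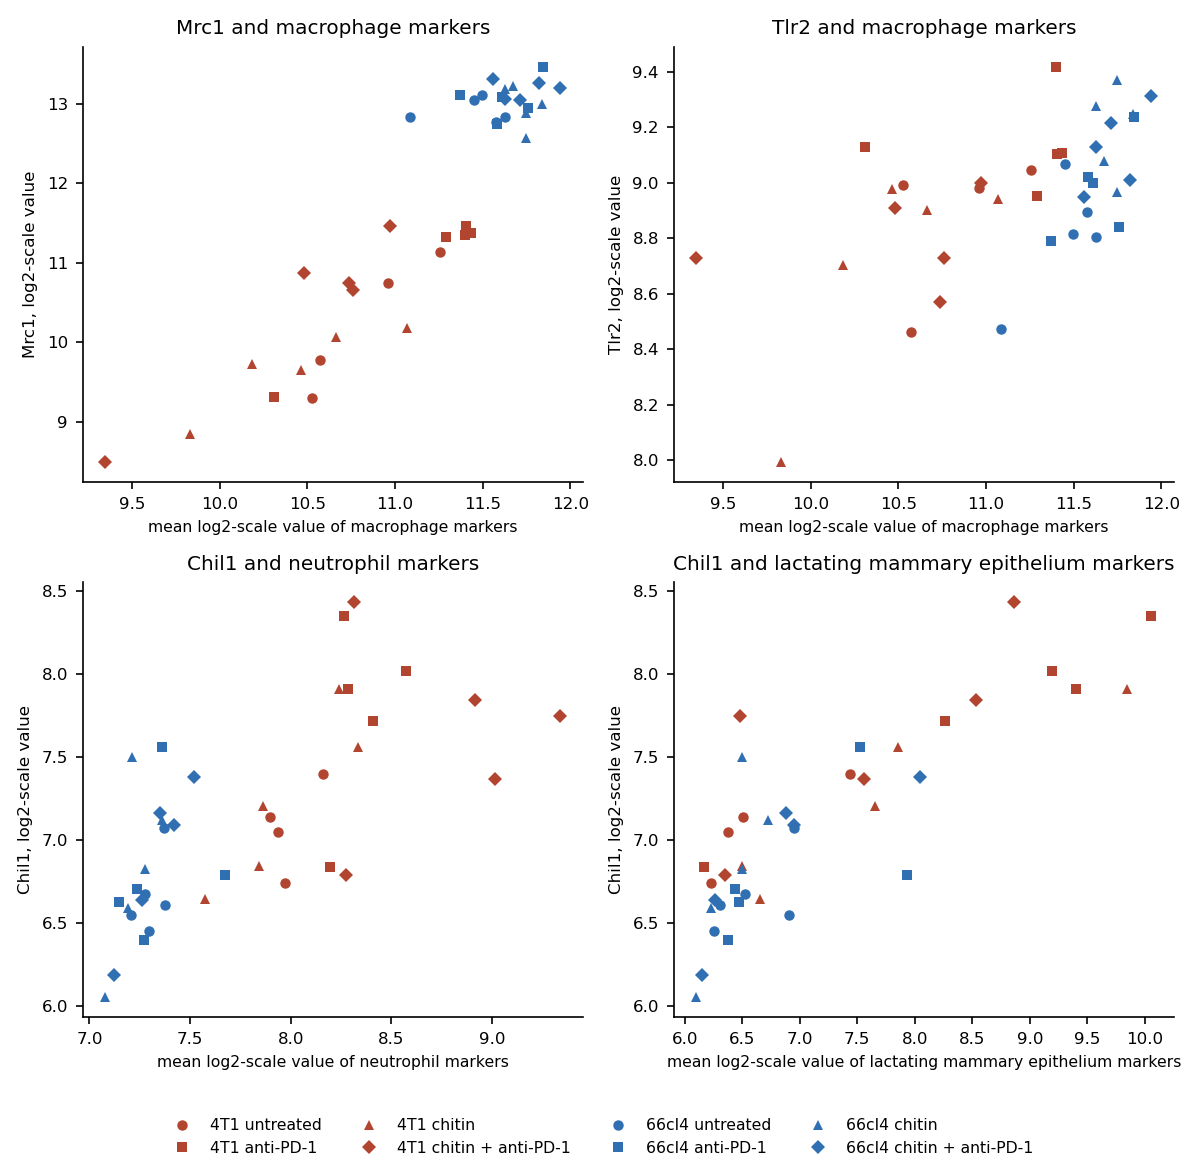
Log2-scale values of Mrc1, Tlr2 and Chil1 against the mean of marker genes in each tumor, 4T1 in red and 66cl4 in blue, with a symbol for each treatment. Mrc1 rises with macrophage markers in 4T1 (r = 0.90), and for Chil1 in 4T1 r was 0.87 with milk protein genes and 0.50 with neutrophil markers.

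For each of the 9 genes, the 3 genes with the most similar pattern were found by the smaller of its Spearman rho values in 19 4T1 and 20 66cl4 tumors, given here in that order as a description. Those most like Chil1 were Tmprss2 (0.89 and 0.87), Oxtr (0.87 and 0.88) and Clic6 (0.90 and 0.86). For Chil3 they were Smpdl3a (0.84 and 0.75), Ifi30 (0.74 and 0.80) and Cbr3 (0.74 and 0.73). The 66cl4 values of Chil3 rest on at most 6 reads per tumor, with 7 of 20 tumors tied at 0, which limits its ranks. Chid1 was closest to Ahsa1 (0.65 and 0.66), Mrps33 (0.64 and 0.65) and Srp14 (0.74 and 0.64), and Ovgp1 to Plekhg1 (0.61 and 0.70), Chd7 (0.58 and 0.56) and Hoxd8 (0.55 and 0.56), where few reads limit the ranks. Tmprss2 and Clic6 are genes of epithelial cells and Oxtr encodes the oxytocin receptor, while Ifi30 encodes a lysosomal enzyme of antigen-presenting cells.

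Among the receptors, the genes most like Mrc1 were Stard8 (0.95 and 0.80), Maf (0.91 and 0.79) and Stab1 (0.93 and 0.78). Stab1 encodes the macrophage scavenger receptor that binds Chid1, and Maf a transcription factor of tissue macrophages. Tlr2 was closest to Fcer1g (0.82 and 0.77), Icam1 (0.76 and 0.85) and Ctsc (0.75 and 0.79), with Fcer1g an adaptor of Fc receptors and of other C-type lectins. The genes most like Clec7a were Cd101 (0.61 and 0.65), Man2b1 (0.59 and 0.66) and Gna15 (0.58 and 0.58), and those most like Nod2 were Sp110 (0.70 and 0.68), Zfp36 (0.71 and 0.68) and Dazap2 (0.75 and 0.66). For Lgals3 they were Maff (0.87 and 0.85), Slc2a1 (0.81 and 0.87) and Aldoa (0.79 and 0.82), of which Slc2a1 is the main glucose transporter and Aldoa an enzyme of glycolysis.

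The wider pathway was read from 5 lists. Of other chitinase family genes, Ctbs alone was measured, a lysosomal enzyme that cuts chitobiose from glycoproteins, and it was lower in 4T1 (-0.41 on the log2 scale, adjusted p = 2.01e-10). Chia1, Chit1, Chil4, Chil5 and Chil6 had no row in the table. The counts that follow stand beside 78.8% of all genes past the threshold, 40.8% higher and 38% lower in 4T1, and a median over all genes of 0.015. Of 7 receptors and partners of chitinase-like proteins, 5 were measured, and 3 were higher and 2 lower in 4T1 (median 0.21). The largest were Il13ra1, a chain of the IL-13 receptor, at 1.93 (adjusted p = 3.95e-23) and Stab1 at -2.47 (adjusted p = 3.77e-17). Cd44, a hyaluronan receptor, and Ptgdr2 were higher by 0.88 and 0.21, and Tmem219 was lower (-0.13).

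Of 7 measured C-type lectins and other chitin receptors, 1 was higher and 5 were lower in 4T1 (median -0.70), beside 40.8% and 38% of all genes. The endocytic collagen receptor Mrc2 was lower (-2.68, adjusted p = 1.24e-16), as were Clec4d (-1.19) and Clec4e (-0.73), which sense mycobacterial lipids and damaged cells, while Cd209a was higher (0.29). The calls of Cd209a and Ptgdr2 were lost after quantile normalization or with limma-voom. Of 17 genes downstream of Tlr2, Clec7a and Nod2, 4 were higher and 10 lower in 4T1 (median -0.21), and 14 of 17 past the threshold stood beside 78.8% of all genes. The B-cell and myeloid phospholipase Plcg2 (1.58), the adaptor Tirap (0.75) and Malt1 (0.46) were higher, and the co-receptors Cd14 (-1.55), Cd36 (-0.66) and Tlr1 (-0.61) were lower.

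Of 10 measured cytokine and feedback genes induced by these receptors, 5 were higher and 1 was lower in 4T1 (median 0.21), and 6 of 10 past the threshold stood beside 78.8% of all genes. Il23a had the largest difference (2.67, adjusted p = 9.66e-23), followed by Il1b (1.49) and the feedback inhibitor Tnfaip3 (0.67), and Tnf was lower (-0.093, adjusted p = 0.0454, a call lost in 23 of 39 fits that left out 1 tumor). With chitin, none of the 40 measured genes of these lists passed the threshold in either model, nor for the difference between models.

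Upstream of the start sites, the letters of 4 binding motifs were searched on both strands in the 250 bases before each RefSeq start (GRCm38.p6). TTCNNNGAA (STAT) occurred in Chil3 among the 9 genes, GAGGAAG (PU.1) in Mrc1 with 2 matches, TGANTCA (AP-1) in Ovgp1 and TTGCNNAA (C/EBP) in none. Over all 32851 promoters of the same length, 7.02%, 10.6%, 6.75% and 9.56% held these letters. The promoters of Chil3 and Mrc1 are shown because Chil3 stood apart in 2 tumors and Mrc1 had the largest of the 9 differences between models on the deposited log2 scale, 5′ to 3′ on the strand of the gene, with the matches in capitals.
Chil3, chr3:106167565-106167814, minus strand: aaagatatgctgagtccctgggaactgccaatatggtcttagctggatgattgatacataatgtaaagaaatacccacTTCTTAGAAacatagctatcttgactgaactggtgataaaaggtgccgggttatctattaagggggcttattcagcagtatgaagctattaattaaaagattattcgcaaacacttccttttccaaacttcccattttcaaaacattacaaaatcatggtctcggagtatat
Mrc1, chr2:14229164-14229413, plus strand: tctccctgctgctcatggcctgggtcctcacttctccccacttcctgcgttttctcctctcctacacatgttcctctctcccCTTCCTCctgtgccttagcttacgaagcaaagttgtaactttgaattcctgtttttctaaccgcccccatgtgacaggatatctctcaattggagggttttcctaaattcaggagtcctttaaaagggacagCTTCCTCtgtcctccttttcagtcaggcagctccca
The Chil3 match starts 172 bases before the start site, and the Mrc1 matches, on the opposite strand, start 168 and 36 bases before it. No binding was measured here.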

How the data were processed

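RNA-sequencing values of 39 primary tumors were analysed. The authors aligned reads to mm10 with HISAT2, counted them per gene with strand information, dropped genes that did not exceed 10 reads in 10% of cases or more, and stabilized the variance with DESeq2. Which annotation they used is not given in the sources used here. The deposited values are on a log2 scale whose lowest value, 6.05, stands for a count of 0. Inverting the transformation gave whole reads for 100% of values (tolerance 0.001 reads).

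Deposited values were compared with limma 3.58.1 (R 4.3.3, mean-variance trend) over 4 groups within a model or 8 groups across models, adjusted with Benjamini-Hochberg over 14318 genes, at a threshold of 0.05. The procedure was tested on simulated data. Alternatives were limma-voom on the recovered reads, also thinned to 5105898 reads per tumor, tumor weights, other normalizations, a filter on low genes, a replicate block and leaving out 1 tumor at a time. Relations with marker lists used two-sided permutation tests with 100000 resamples (numpy 2.4.6). The named genes are the 9 genes, list genes past the threshold (for the model comparison, at most 3 in each direction per list) and the 3 genes most like each. Marker lists held neutrophils, macrophages, alternatively activated macrophages, dendritic cells, T cells, B cells, mammary tumor epithelium, lactating mammary epithelium, skeletal muscle and adipocytes. Genes and lists were chosen with earlier results of these data known. Intervals cover the spread between tumors.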

Additional observations from a re-analysis of the deposited data

Results flagged for a closer look

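In each group, the highest or the lowest tumor was compared with its nearest neighbour by Dixon's gap on the log2 scale. A tumor stood apart in 8 of 72 gene and group pairs, where chance sets about 1 in 20 apart. Values are normalized counts. Among 4T1 tumors, Tlr2 was low in untreated tumor 2 at 233, against 381 to 404 in the others of its group, and in chitin-treated tumor 1 at 139, against 295 to 380.2. Mrc1 was low in anti-PD-1-treated tumor 2 at 511 (others 2435 to 2702) and in tumor 1 of the chitin + anti-PD-1 group at 239 (others 1493 to 2697). Clec7a was high in chitin-treated tumor 2 at 643 (others 328 to 375). Lgals3 was low in untreated tumor 4 at 1055 (others 1630.3 to 1772). Ovgp1 was high in chitin + anti-PD-1-treated tumor 3 at 17.7 (others 8.18 to 10.5), which was a count of 14 reads. In 66cl4, Nod2 was low in chitin + anti-PD-1-treated tumor 5 at 25.8 (others 34.4 to 37.5). The 2 Chil3-high tumors shared a group and so were not set apart by this gap.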

How the results depend on the processing

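With the tumor number as a replicate block, 7 of 9 genes differed between models over 4 treatments, 4 in untreated tumors and 0 in each treatment comparison, so no count of calls moved. Deviations of tumors with the same number in different groups of a model had a mean r of 0.0101 in 4T1 (27 pairs) and 0.0618 in 66cl4 (30 pairs). For different numbers it was -0.000571 and -0.0145. These pairs cross treatment groups, so they cannot show whether tumors within a group came from the same mouse. Dropping the 25% lowest genes by mean removed Chil1, Chil3, Ovgp1 and Nod2 from the test by construction, which left 3 genes over 4 treatments and after chitin + anti-PD-1 and 2 in untreated, anti-PD-1-treated and chitin-treated tumors. With tumor weights, 1 gene passed for anti-PD-1 in 4T1 (Chil1, adjusted p = 0.0495) and 1 for the difference of the chitin effects (Tlr2, adjusted p = 0.0171), and the cause was not tested. Leaving out 1 tumor at a time gave 0 to 1 gene for the chitin-containing groups of 66cl4, 0 to 1 for the difference of the chitin effects and 1 to 7 relations past the threshold, while centring on treatment groups gave 3. Over 39 such fits, 7 to 8 genes differed between models.

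Only differences that had not passed the threshold changed sign, and the cause was not tested. For chitin-containing against other 4T1 tumors, Chil1 turned to -0.21 with tumor weights, -0.075 with limma-voom and -0.055 at equal depth (-0.10 to 0.12 without 1 tumor), Ovgp1 to -0.16 at equal depth (-0.022 to 0.05 without 1 tumor), Lgals3 to 0.059 with weights and 0.023 without both Chil3-high tumors (-0.18 to 0.033 without 1 tumor), and Chil3 to -0.20 without both. In 66cl4, Chil1 turned to -0.30 with limma-voom and Ovgp1 to 0.045 at equal depth. For the difference of the chitin effects, Chil1 turned to 0.19 with limma-voom and 0.088 without both tumors (-0.21 to 0.0079 without 1 tumor), Chil3 to -0.26 without both, Chid1 to -0.033 with weights and -5.97e-05 with limma-voom (-0.023 to 0.043 without 1 tumor) and Ovgp1 to -0.20 at equal depth. Few reads limit Chil3 and Ovgp1 in 66cl4, and the Tlr2 difference between models passed the threshold with tumor weights (adjusted p = 0.0144), median centring (0.0224) or quantile normalization (0.0321), and that of Lgals3 with quantile normalization (0.0276). Leaving out both Chil3-high tumors, and the alternatives for models compared within a single treatment other than no treatment, were chosen after seeing the data.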

Other observations

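Of the 180 relations between the 9 genes and 10 marker lists, computed after other values had been seen, 19 passed an adjusted permutation p of 0.05 by Pearson's r. Mrc1 had 6 of them in 4T1 tumors and none in 66cl4 tumors, a contrast that was not tested. Besides macrophage markers, they were with alternatively activated macrophage markers (r = 0.91), dendritic cells (0.71), skeletal muscle (0.66), adipocytes (0.63) and B cells (0.61), with adjusted permutation p-values of 0.00045 to 0.0432 and rho of 0.66 to 0.92. Tlr2 moved with T cell markers in 4T1, with r = 0.69 (adjusted permutation p = 0.00926), rho = 0.75 (adjusted permutation p = 0.00787) and r = 0.60 without the 2 tumors farthest from the median. Chid1 moved against T cell markers in 66cl4, with r = -0.61 (adjusted permutation p = 0.0432), rho = -0.63 (adjusted permutation p = 0.038) and r = -0.56 without the 2 tumors farthest from the median. Clec7a moved with alternatively activated macrophage markers in 66cl4, with r = 0.76 (adjusted permutation p = 0.00468), rho = 0.72 (adjusted permutation p = 0.0112) and r = 0.68 without the 2 tumors farthest from the median.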
